A study of Arabidopsis thaliana with 72 samples.

Results

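Mature, dried seeds were set against siliques of *Arabidopsis* for the level of each mRNA and for the fraction of pseudouridine (Ψ) at each site of the deposited list. All plants were of the Col-0 accession, with no mutation or treatment named, grown under long days. The seeds were collected once mature and dry, and the siliques after flowering, at a stage that the methods do not state. Both were kept as separate tissues among the 9 of the series, and poly(A)-tailed RNA was used for each. Expression was deposited in 1 column for seed and 2 for silique, out of 16 columns in all, which matches the 1 input library of seed and the 2 of silique. The Ψ fractions came from 5 treated libraries of seed and 6 of silique, which the authors combined into 1 column for each tissue. Of 32833 genes, the 26078 with a level of at least 1 TPM (transcripts scaled for length and depth) in any of the 16 columns were tested. Of 8512 sites, 7815 had a fraction in both tissues, 648 lacked one in seed and 98 lacked one in silique.

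The silique is the fruit of *Arabidopsis*. Its green wall photosynthesizes and encloses the developing seeds, so that RNA of a whole silique includes that of young embryos, endosperm and seed coats. During seed maturation the embryo stores protein and oil, acquires tolerance to drying under the control of abscisic acid, loses its photosynthetic capacity and stops dividing. The dry seed keeps mRNAs made late in maturation, some of which are used at germination. Ψ is an isomer of uridine made within RNA by pseudouridine synthases, which act alone or, with the catalytic subunit CBF5, in H/ACA particles guided by small nucleolar RNAs. In BID-seq, bisulfite bound to Ψ makes reverse transcription skip the base, and the share of reads with a gap is calibrated to a fraction between 0 and 1.

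The labels were checked against marker lists. All 10 storage protein genes, all 7 oil body genes and all 19 genes for late embryogenesis abundant (LEA) proteins and desiccation had at least 1 TPM in the seed column. In both silique columns, 14 of 15 fruit patterning genes and all 43 photosynthesis genes had at least 1 TPM, and so did all 15 seed coat genes, 6 of 7 endosperm genes and the maturation regulators other than *HSFA9*. The storage protein, oil body and LEA genes also reached 1 TPM in silique, and all photosynthesis genes did in seed. For these lists, reaching 1 TPM therefore does not tell the labels apart, and only the levels given below differ. In seed, 12 fruit patterning, 11 seed coat and 7 endosperm genes were under 1 TPM. Of the 5 petal and pollen genes, summed levels were 44.4 TPM in seed, against 203 and 217 TPM in silique, with *AP3*, a petal and stamen identity gene, at 0.75 TPM in seed, against 93.7 and 96.3 TPM in silique. The part of floral remains in the silique columns was not tested. In tissue samples of this kind, fewer cells of a type and less RNA per cell cannot be told apart.

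Fewer genes were detected in seed than in silique. A level of at least 1 TPM was reached by 15811 genes in seed, against 21296 and 21322 in silique, and 7998 genes were listed at 0 in seed, against 5128 and 5037 in silique. The 10 most abundant mRNAs held 7.42% of the summed TPM in seed, against 2.35% and 2.28% in silique. The depth, as far as the steps between TPM values show it, was 0.62 times that of silique in the seed column. Of the genes tested, 3229 were higher in seed and 10969 were lower, at an adjusted p under 0.05 (limma, Benjamini-Hochberg) and a difference of at least 1 on the log2(TPM + 1) scale. These are 12.4% and 42.1% of the genes tested, and the median difference over all of them was -0.63. With the columns scaled to the genes above 1 TPM everywhere, 4771 genes were higher and 9620 lower, the share of higher genes among those called was 33.2% in place of 22.7%, and the median difference was -0.36. The lone seed column was assumed to vary like the columns of the other tissues, and the p-values cover only the spread between columns, which may be technical.

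**Figure D1:**
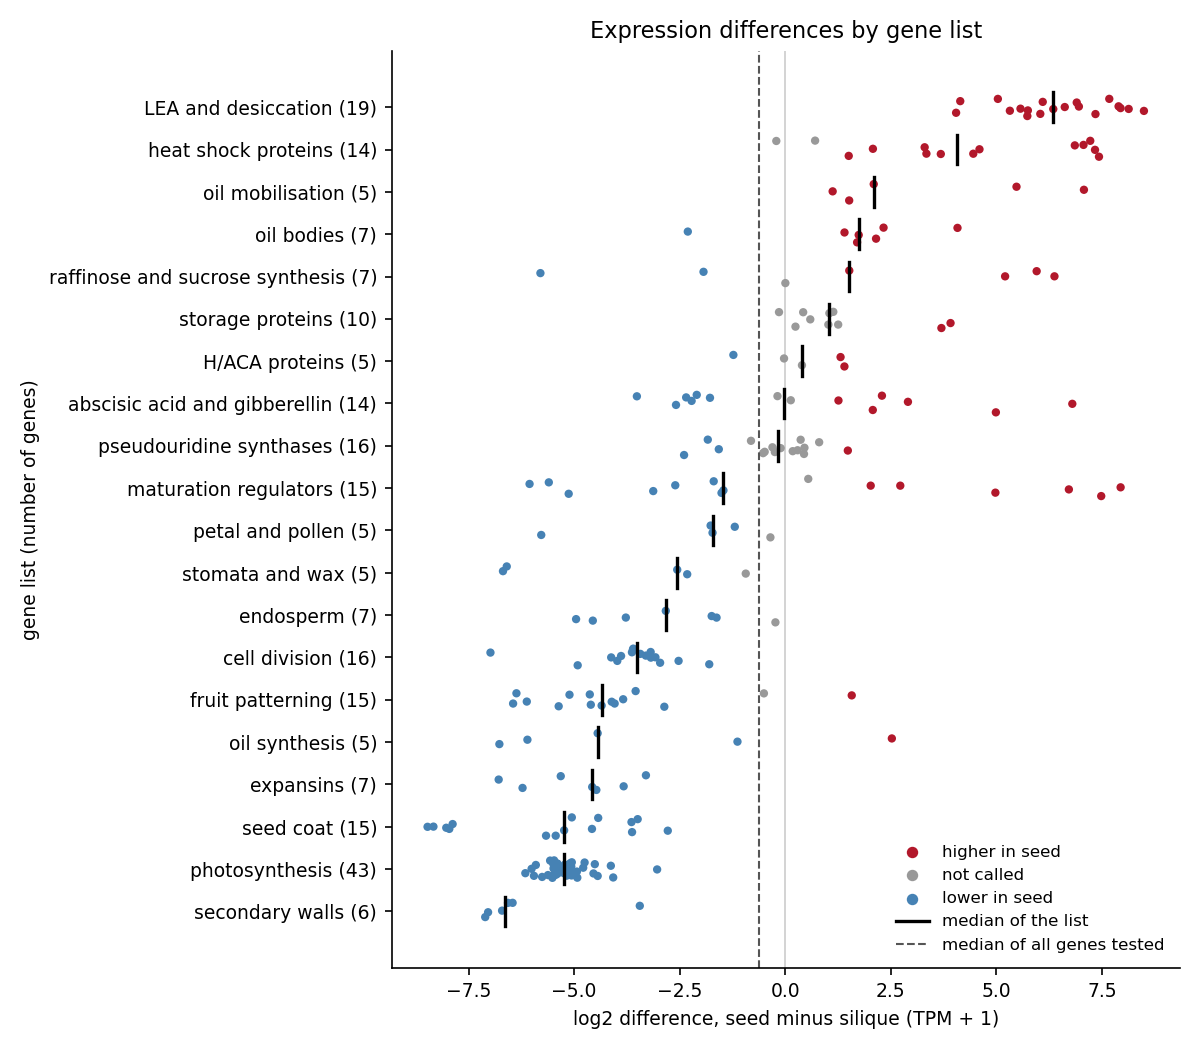
Log2 difference in TPM + 1, seed minus silique, for the genes of 20 lists, with the number of genes in brackets. Each point is 1 gene, coloured by its call, the black bar is the median of the list, and the dashed line is the median of all genes tested (-0.63). The 19 LEA and desiccation genes lie between 4.05 and 8.50, and the 43 photosynthesis genes between -6.16 and -3.03.

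Storage protein mRNAs were abundant in both tissues. The 10 genes summed to 40350 TPM in seed, against 16550 and 16250 TPM in silique. Of the 10, 2 were higher in seed and none lower, beside 12.4% and 42.1% of all genes tested, with a median difference of 1.03. *PAP85*, which encodes a vicilin-like globulin, had 6064 TPM in seed, against 444 and 488 TPM in silique (log2 difference 3.70 ± 0.65 (SE), adjusted p = 0.000254). *SESA5*, one of the 2S albumins, stood at 6417 TPM in seed, against 399 and 451 TPM in silique (3.92 ± 0.83, adjusted p = 0.00101). The major 12S globulin *CRA1* had 5226 TPM in seed, against 2212 and 2166 TPM in silique. It did not pass the test (1.26 ± 0.63, adjusted p = 0.0900), and neither did *CRU3* with 5027 TPM in seed, against 2497 and 2454 TPM in silique, *CRU2* or *SESA3*. Each of these 4 genes passed when the columns were scaled (limma, adjusted p between 0.022 and 0.033). They also passed when only the seed and silique columns were fitted. The spread in that fit comes from the 2 silique columns alone, so it holds no measure of how seed varies. *SESA2* had 1914 TPM in seed, against 2164 and 2075 TPM in silique, the only member with a negative difference (-0.15, adjusted p = 0.824), which was positive with scaled columns (0.35). Values of the 2 silique columns were close to each other for all of these genes, and the seed column lay outside them in every one.

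Of the 7 genes for proteins of oil bodies, 6 were higher in seed and 1 was lower, beside 12.4% and 42.1% of all genes tested. The structural oleosin gene *OLEO1* had 6827 TPM in seed, against 2082 and 2004 TPM in silique (1.74 ± 0.65, adjusted p = 0.0290), and *OLEO2* had 4856 TPM in seed, against 1487 and 1494 TPM in silique. Neither passed the test without silique replicate 1 (limma, adjusted p = 0.0715 and 0.0854), without silique replicate 2 (0.0796 and 0.0845) or with no filter on low values (0.0673 and 0.0761), which left 4 genes higher. *HSD1*, a steroleosin, had 2593 TPM in seed, against 143 and 163 TPM in silique (4.08 ± 0.63, adjusted p = 9.00e-05), although near-identical copies of this gene can share its reads. The oleosin gene *OLEO3* went the other way, with 138 TPM in seed, against 702 and 667 TPM in silique (-2.31 ± 0.32, adjusted p = 3.46e-05).

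Genes for the making of oil and for its use differed in direction. The fatty acid elongase gene *FAE1* had 0.50 TPM in seed, against 162 and 163 TPM in silique (-6.77 ± 0.31, adjusted p = 1.35e-09), and the desaturase genes *FAD2* (26.4 TPM in seed, against 598 and 591 TPM in silique) and *FAD3* (2.19 TPM in seed, against 218 and 219 TPM in silique) were lower too. *DGAT1*, for the last step of triacylglycerol synthesis, was the only 1 of the 5 synthesis genes that was higher, at 241 TPM in seed, against 41.1 TPM in each silique column. The acyltransferase gene *PDAT1* (8.61 TPM in seed, against 20.2 and 19.9 TPM in silique) was lower, but not with scaled columns (-0.68). All 5 genes for oil mobilisation were higher in seed, beside 12.4% of all genes tested. The glyoxylate cycle enzymes isocitrate lyase (*ICL*, 2743 TPM in seed, against 58.3 and 63.0 TPM in silique) and malate synthase (*MLS*, 2044 TPM in seed, against 10.7 and 18.7 TPM in silique) differed by 5.48 ± 0.15 and 7.08 ± 0.31 on the log2 scale. *SDP1*, for the lipase that starts the breakdown of stored oil, differed least (1.12 ± 0.05), with 60.5 TPM in seed, against 26.8 and 27.7 TPM in silique.

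All 19 LEA and desiccation genes were higher in seed, beside 12.4% of all genes tested. Their median difference was 6.35, and their summed level was 64460 TPM in seed, against 759 and 1266 TPM in silique. *RAB18*, a dehydrin, had the highest level, at 8742 TPM in seed, against 103 and 168 TPM in silique (6.04 ± 0.72, adjusted p = 1.04e-05). *EM6* had 6088 TPM in seed, against 12.0 and 67.4 TPM in silique (7.68 ± 0.95, adjusted p = 1.37e-05). *M10* had 4342 TPM in seed, against 4.57 and 41.8 TPM in silique. *ECP31* had a difference of 8.50 ± 0.96 (adjusted p = 6.37e-06), with 3681 TPM in seed, against 2.89 and 25.7 TPM in silique. *PER1*, for a peroxiredoxin of dry seeds, had the smallest (4.05 ± 0.54), with 3598 TPM in seed, against 204 and 230 TPM in silique. No silique value came near that of seed, but the 2 silique columns differed: 18 of the 19 genes, all but *RAB28*, were higher in silique replicate 2 than in replicate 1. Without silique replicate 1 the median difference was 5.95, and without replicate 2 it was 6.66. The difference of *M10* was 6.67 without replicate 1 and 9.61 without replicate 2, that of *EM6* 6.48 and 8.88, and that of *ECP31* 7.11 and 9.89. Over all genes higher in seed, silique replicate 2 exceeded replicate 1 in 60.4%, against 49.6% of the genes not called and 50.5% of the genes lower in seed. What set the silique columns apart was not tested.

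Of 14 heat shock protein genes, 12 were higher in seed and none lower, beside 12.4% and 42.1% of all genes tested. Their median difference was 4.07. Levels in seed were uneven, from 2.09 TPM (*HSP18.2*) to 3498 TPM (*HSP17.4*), with a median of 116.5 TPM. The small heat shock protein gene *HSP17.4* had 3498 TPM in seed, against 16.0 and 39.2 TPM in silique (7.07 ± 0.73, adjusted p = 2.83e-06). *HSP17.6A* had 3495 TPM in seed, against 9.47 and 43.6 TPM in silique, and *HSP70B* had 1735 TPM in seed, against 6.59 and 12.3 TPM in silique. Without silique replicate 1 the difference of *HSP17.4* was 6.45 and that of *HSP17.6A* 6.29, and without replicate 2 they were 7.69 and 8.38. *HSP101*, for a disaggregase needed for heat tolerance, had 553 TPM in seed, against 41.6 and 42.5 TPM in silique (3.69 ± 0.14, adjusted p = 2.01e-10). Not every member had this pattern: *HSP18.2* stood at 2.09 TPM in seed, against 2.95 and 2.24 TPM in silique (-0.21, adjusted p = 0.345, and 0.14 with scaled columns).

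**Figure D2:**
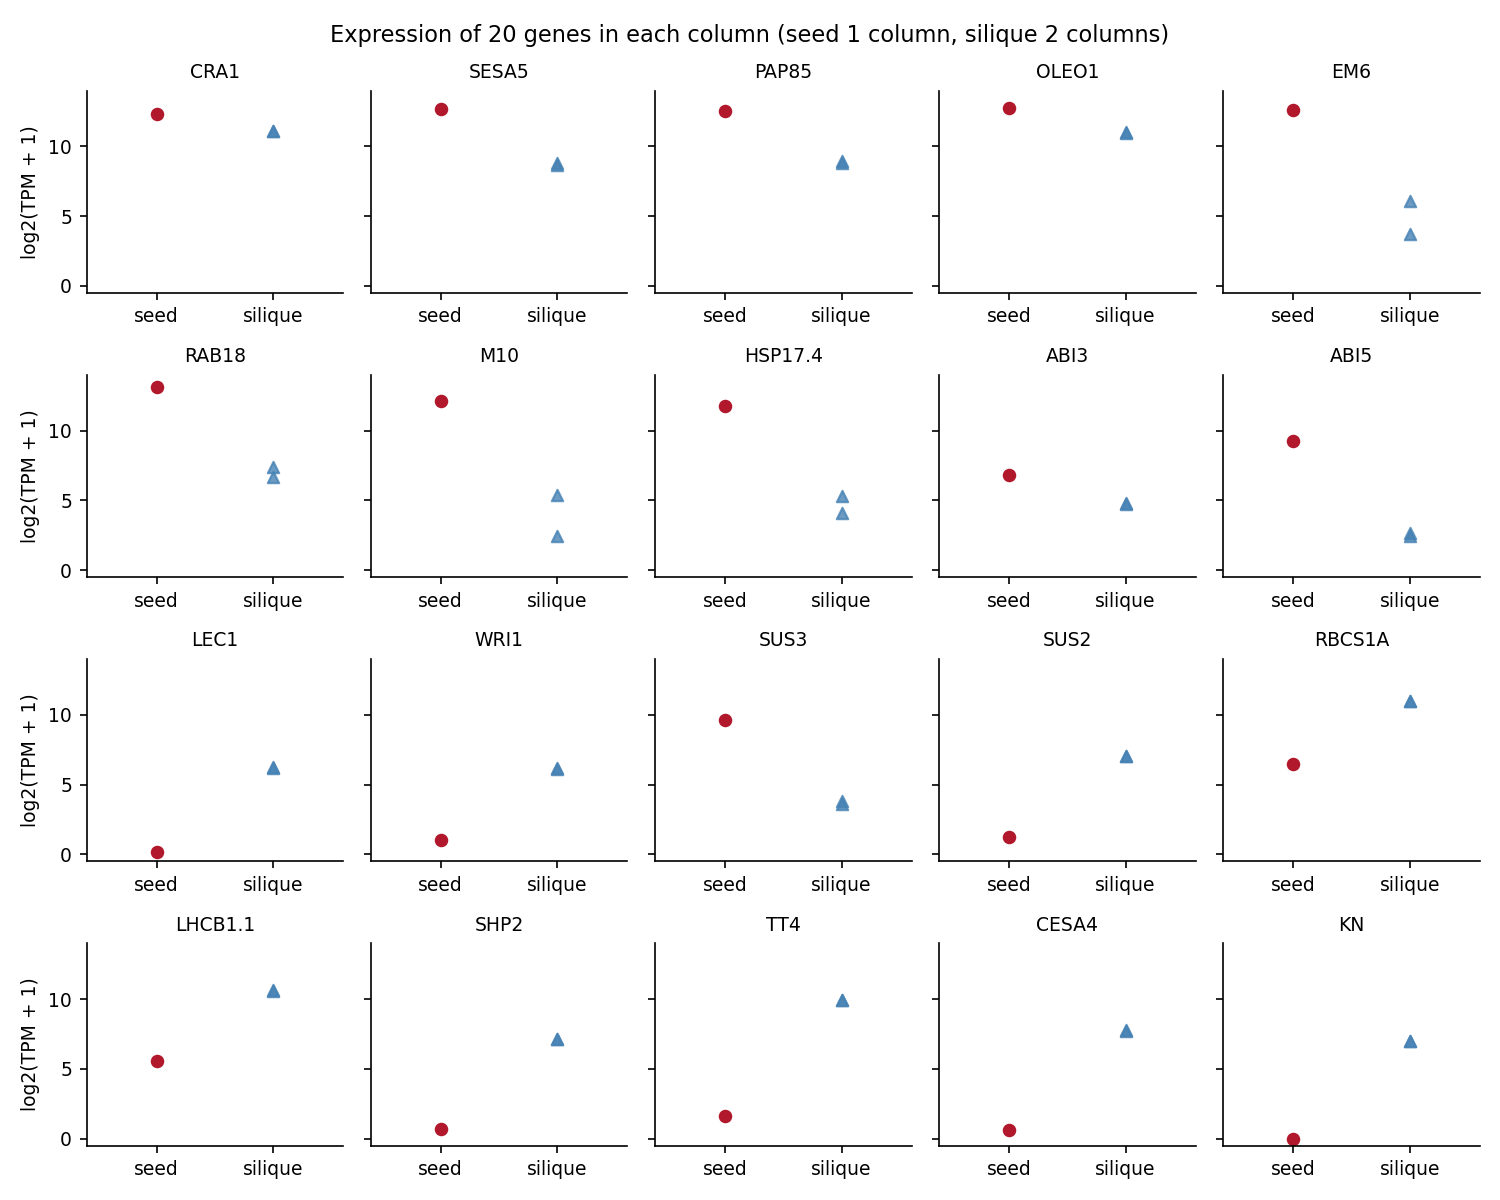
Expression of 20 genes as log2(TPM + 1), with the seed column (red circle) left of the 2 silique columns (blue triangles, which overlap where they agree). EM6 and M10 show the widest gap between the silique columns (12.0 and 67.4 TPM, and 4.57 and 41.8 TPM), while CRA1, at 5226 TPM in seed, is high in silique as well (2212 and 2166 TPM).

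Of 15 regulators of seed maturation, 6 were higher in seed and 8 lower, beside 12.4% and 42.1% of all genes tested. The bZIP factor *ABI5*, which acts in abscisic acid signalling at the end of maturation, had 625 TPM in seed, against 4.55 and 5.36 TPM in silique (6.72 ± 0.24, adjusted p = 1.66e-10). The seed heat shock factor *HSFA9* had 418 TPM in seed, against 0.06 and 1.74 TPM in silique, and *SOM*, a repressor of germination in the dark, had 1286 TPM in seed, against 4.65 and 8.13 TPM in silique. The dormancy genes *DOG1* (104 TPM in seed, against 15.0 and 14.6 TPM in silique) and *RDO5* (239 TPM in seed, against 5.66 and 7.75 TPM in silique) were higher as well. *ABI3* had 111 TPM in seed, against 26.3 and 26.9 TPM in silique (2.03 ± 0.28, adjusted p = 3.73e-05). Among those lower in seed, *LEC1*, needed for embryo identity, had 0.14 TPM in seed, against 76.2 and 73.5 TPM in silique (-6.06 ± 0.33, adjusted p = 8.28e-09), its relative *L1L* had 1.13 TPM in seed, against 105 and 99.5 TPM in silique, and *WRI1*, an activator of oil synthesis genes, had 1.02 TPM in seed, against 67.2 and 71.9 TPM in silique. *FUS3* was lower by less, at 15.1 TPM in seed, against 44.1 and 42.8 TPM in silique (-1.46 ± 0.22), and was not called with scaled columns (-0.99).

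Of 14 abscisic acid and gibberellin genes, 6 were higher in seed and 6 lower, beside 12.4% and 42.1% of all genes tested, so that the number of lower genes was near the background. The phosphatase gene *AHG1*, a brake on abscisic acid signalling in seeds, had 879 TPM in seed, against 6.56 and 7.25 TPM in silique (6.80 ± 0.23, adjusted p = 7.92e-11), and its relative *HAI3* had 36.7 TPM in seed, against 0.24 and 0.14 TPM in silique. Their relatives did not all go this way. *HAI2* was higher (2.91 ± 0.10), *HAI1* was lower, with 24.4 TPM in seed, against 148 and 155 TPM in silique (-2.59 ± 0.13), and *AHG3* was not called (-0.18). *CYP707A2*, for an enzyme that breaks abscisic acid down, had 17.9 TPM in seed, against 3.68 and 3.29 TPM in silique, while *CYP707A1*, for the same reaction, had 1.69 TPM in seed, against 10.6 and 10.4 TPM in silique. *GA3OX1*, for a late step of gibberellin synthesis, had 0.18 TPM in seed, against 14.6 and 10.6 TPM in silique (-3.51 ± 0.19), and the biosynthetic *NCED6* and *NCED9* were lower in seed by -2.22 and -1.78 on the log2 scale. *SNRK2.3* had 125 TPM in seed, against 24.3 and 25.2 TPM in silique, while its paralogue *SNRK2.2*, another kinase of the pathway, did not reach the size limit at 119 TPM in seed, against 109 and 108 TPM in silique.

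Among genes of sugar metabolism, paralogues also had opposite directions. The sucrose synthase *SUS3* had 811 TPM in seed, against 11.3 and 12.9 TPM in silique (5.96 ± 0.16, adjusted p = 1.13e-11), and *SUS2* had 1.36 TPM in seed, against 130.1 and 130.0 TPM in silique (-5.80 ± 0.18, adjusted p = 4.42e-11). *GOLS2*, for a galactinol synthase at the start of raffinose synthesis, had 1059 TPM in seed, against 9.81 and 14.04 TPM in silique, and its relative *GOLS1* had 666 TPM in seed, against 16.2 and 17.9 TPM in silique. The raffinose synthase gene *RS5* had 0.78 TPM in seed, against 5.96 and 5.63 TPM in silique (-1.94 ± 0.12).

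All 43 photosynthesis genes were lower in seed, beside 42.1% of all genes tested. Their median difference was -5.25, beside -0.63 for all genes tested, and their summed level was 1439 TPM in seed, against 47310 and 46260 TPM in silique. *RBCS1A*, for the small subunit of Rubisco, had 87.5 TPM in seed, against 2084 and 2035 TPM in silique (-4.54 ± 0.26, adjusted p = 1.21e-08). *LHCB1.1*, for an antenna protein of photosystem II, had 45.6 TPM in seed, against 1587 and 1539 TPM in silique (-5.07 ± 0.19). The members of the *RBCS* and *LHCB1* families are near-identical, so the split of reads among them is uncertain. The Calvin cycle gene *GAPA1* was the farthest below, with 12.0 TPM in seed, against 925 and 919 TPM in silique (-6.16 ± 0.13, adjusted p = 1.92e-12), and *LHCB4.1* the least, with 151 TPM in seed, against 1261 and 1228 TPM in silique (-3.03 ± 0.09). None was listed at 0 in seed.

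The lists of the silique wall and of growing organs were lower in seed as well. Over all genes tested, 42.1% were lower in seed and 12.4% higher, shares to set beside the count of each list here. Of the 15 fruit patterning genes, 13 were lower, among them *SHP2*, which specifies the valve margin where the fruit opens (0.59 TPM in seed, against 137.5 and 136.7 TPM in silique, -6.44 ± 0.19), *FUL*, a factor of the valves (0.79 TPM in seed, against 59.0 and 62.3 TPM in silique), and *IND* (0.13 TPM in seed, against 14.7 and 15.75 TPM in silique). *YAB3* was the 1 member that was higher, with 32.3 TPM in seed, against 10.2 and 10.1 TPM in silique (1.58 ± 0.18, adjusted p = 6.57e-06), and *ADPG2* was low in both tissues. All 6 genes of secondary walls were lower, with the cellulose synthase *CESA4* at 0.54 TPM in seed, against 208 and 214 TPM in silique (-7.11 ± 0.08, adjusted p = 8.17e-15), and so were all 7 expansin genes, which loosen growing walls, with *EXPA10* at 0.48 TPM in seed, against 162 TPM in each silique column. Of 5 genes of stomata and wax, 4 were lower, including the wax synthesis genes *CER1* (0.76 TPM in seed, against 180.4 and 179.5 TPM in silique) and *CER6* (3.27 TPM in seed, against 415 and 408 TPM in silique). All 16 cell division genes were lower, and 14 of them were under 1 TPM in seed. *KN*, the syntaxin of the cell plate, was listed at 0 in seed and had 125 and 126 TPM in silique. *CYCB1;2*, a mitotic cyclin, had 0.26 TPM in seed, against 18.7 and 19.0 TPM in silique. Of the petal and pollen genes, 4 of 5 were lower, and 3 with scaled columns.

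Genes that mark the coat and endosperm of developing seeds were mostly low in dry seed. All 15 seed coat genes were lower, with a median difference of -5.24, and 11 of them were under 1 TPM in seed. Of all genes tested, 42.1% were lower, a share to set beside this count and that of the endosperm genes. *TT10*, a laccase that browns the coat, had 0.20 TPM in seed, against 424 and 425 TPM in silique (-8.47 ± 0.23, adjusted p = 1.17e-11). Chalcone synthase (*TT4*), the entry to flavonoids, had 2.03 TPM in seed, against 987 and 963 TPM in silique (-8.33 ± 0.12), and *BAN*, for proanthocyanidin precursors, had 0.38 TPM in seed, against 322 and 325 TPM in silique. *MUM4*, for the mucilage of the coat, had 5.62 TPM in seed, against 219 TPM in each silique column. The highest of the 15 in seed was *F3H*, with 21.7 TPM in seed, against 282 and 277 TPM in silique (-3.63 ± 0.10). Of 7 endosperm genes, 6 were lower and all 7 were under 1 TPM in seed. *ALE1*, a subtilase gene of the endosperm around the embryo, had 0.10 TPM in seed, against 34.2 and 32.2 TPM in silique, and *ZOU*, its regulator, had 0.17 TPM in seed, against 25.3 and 28.0 TPM in silique. *AGL62*, expressed in young endosperm, was under 1 TPM in both tissues.

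The genes with the largest differences were found across the whole table. The highest in seed relative to silique was AT1G08170, annotated as a histone superfamily protein, with 1434 TPM in seed, against 0.96 and 5.28 TPM in silique (8.68 ± 0.56, adjusted p = 3.77e-08). It was followed by the LEA gene AT4G36600 (2521 TPM in seed, against 1.64 and 13.6 TPM in silique), the seed maturation protein gene AT3G22490 (2002 TPM in seed, against 1.29 and 12.1 TPM in silique), *ECP31*, AT5G55135, the ureide permease gene *UPS4* (681 TPM in seed, against 0.72 and 2.13 TPM in silique), the phosphatase 2C gene AT2G34740, the oxygenase gene AT1G17010, *M10* and *MLP31*. At the other end, AT1G62070, of unknown function, was listed at 0 in seed and had 1713 and 1676 TPM in silique. *GILT*, annotated as a thiol reductase, had 0.60 TPM in seed, against 1953 and 1904 TPM in silique (-10.24 ± 0.51, adjusted p = 3.10e-09), and *DELTA-VPE*, a vacuolar processing enzyme of the inner seed coat, had 0.47 TPM in seed, against 1307 and 1272 TPM in silique (-9.78 ± 0.41). The other 7 were the inhibitor family gene AT4G15750, a second thiol reductase gene AT4G12870, the cupin genes AT5G39130 and AT5G39160, *ENODL3*, AT1G62060 and AT1G62225. AT5G39130 and AT5G39160, and likewise AT1G62060 and AT1G62070, are neighbouring relatives whose reads may be shared.

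Genes for the enzymes of Ψ were mostly not called. Of 16 pseudouridine synthase genes, 1 was higher in seed and 3 were lower. Over all genes tested, 12.4% were higher and 42.1% lower, shares to set beside these counts and those of the H/ACA genes below. The chloroplast enzyme gene *SVR1* had 59.1 TPM in seed, against 21.0 and 20.0 TPM in silique (1.48 ± 0.09, adjusted p = 2.45e-08). The lower ones were AT1G56345 (0.19 TPM in seed, against 5.24 and 5.26 TPM in silique, -2.40 ± 0.19), AT2G30320 (1.83 TPM in seed, against 8.62 and 9.57 TPM in silique) and AT5G51140 (7.58 TPM in seed, against 25.7 and 23.4 TPM in silique). Of the 5 H/ACA protein genes, *GAR1* (244 TPM in seed, against 95.6 and 100.3 TPM in silique, 1.31 ± 0.10) and *NAF1* (17.1 TPM in seed, against 5.51 and 6.23 TPM in silique) were higher, *NHP2* was lower (24.8 TPM in seed, against 62.2 and 56.8 TPM in silique, -1.23 ± 0.12, and not called with scaled columns), and the catalytic subunit *CBF5* had 53.4 TPM in seed, against 55.3 and 53.5 TPM in silique (-0.03 ± 0.08, adjusted p = 0.767, and 0.46 with scaled columns). The 7 seed maturation genes that the study named for seed-specific Ψ sites in these samples had 5 members higher and none lower, so that this count is not independent evidence of a direction.

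Ψ sites were then compared between the tissues. A site that passed the authors' P value-based filter is termed passed. In seed 1546 sites passed and in silique 1660, and 376 sites with a value in both tissues passed in both, which is 24.3% of the seed sites and 22.7% of the silique sites. A further 1153 sites passed in seed only and 1176 in silique only. With 1 combined column for each tissue, neither a spread between libraries nor the read depth at a site is known, so the fractions are given as a description with no test, and a difference of at least 0.1 was used as the rule of size. Over all 7815 sites with a value in both, 16.9% were at least 0.1 higher in seed and 16.7% at least 0.1 lower.

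At the 376 sites that passed in both tissues the fractions were alike in order and leaned higher in seed. The median fraction was 0.269 in seed, against 0.218 in silique, and the median of the differences was 0.028. A fraction at least 0.1 higher in seed was found at 84 of these sites (22.3%, 95% Wilson interval 18.4 to 26.8, which covers the counting of sites only), a fraction at least 0.1 lower at 16 (4.26%), and a smaller difference at the other 276. Pearson's r between the fractions was 0.934 and Spearman's rho 0.931 across these sites, which share libraries and are not independent. Set against each of the 7 other tissues at the sites passed in that pair, the median difference of seed was between 0.0062 (cauline leaf) and 0.030 (shoot), and that of silique between -0.0086 (cauline leaf) and 0.0073 (shoot). These comparisons share the seed or the silique column.

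**Figure D3:**
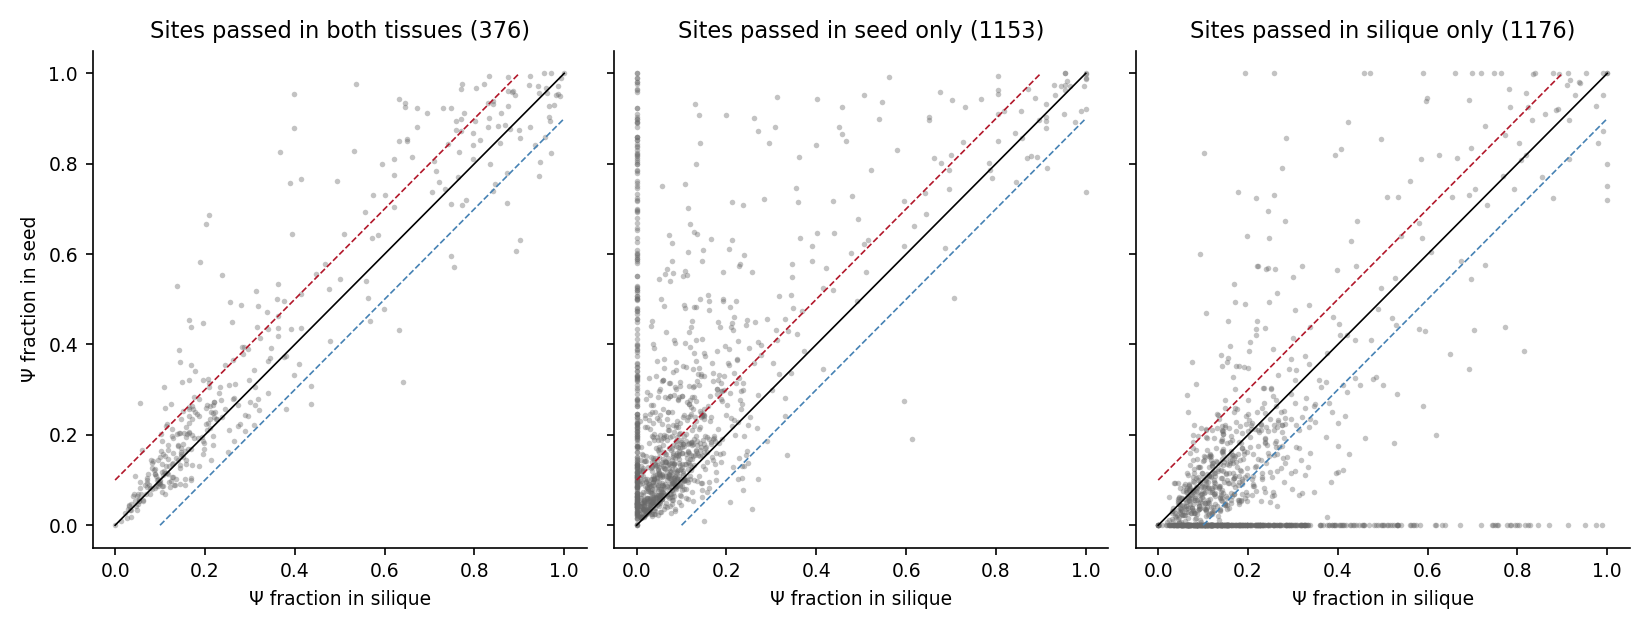
Ψ fraction in seed (vertical axis) against that in silique (horizontal axis) for sites passed in both tissues, in seed only and in silique only, 1 point per site. The solid line marks equal fractions and the dashed lines a difference of 0.1, with 84 sites above the upper and 16 below the lower dashed line among the 376 passed in both.

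The sites passed in both with the largest gain in seed are shown with their windows of 21 nucleotides, since they lie in RNAs of unlike kinds. The capitals are the U made into Ψ, written as T, with its neighbours on either side, read 5′ to 3′ along the RNA from the RefSeq genome TAIR10.1.
AT4G11380 (chr4:6921738-6921758, plus strand): agactgcggCTAtttgcgtcg
PGPS2 (chr3:20397537-20397557, plus strand): gttctgaatTTGgtgcatttt
THFS (chr1:18704554-18704574, plus strand): gaggaagcaTTGgagctggtt
AT2G09465 (chr2:18018251-18018271, minus strand): cttgatctgATGtcttctcat
no annotated gene (chr1:11672208-11672228, minus strand): tgttgttatATAaagataaac
chloroplast tRNA-Gly (Pt:36532-36552, plus strand): agacgcgggTTCgattcccgc

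The first 3 of these sites lie in coding sequence. AT4G11380, an adaptin family gene for vesicle coats, had a fraction of 0.687 in seed, against 0.208 in silique, and its mRNA was lower in seed (-1.52 on the log2 scale). *PGPS2*, for a step of phosphatidylglycerol synthesis, had 0.666 in seed, against 0.203 in silique. *THFS*, a folate enzyme gene, had 0.825 in seed, against 0.366 in silique, but its window occurs 3 times in the genome. The snoRNA gene AT2G09465 had 0.878 in seed, against 0.399 in silique, and was passed in no other tissue. The unannotated site on chromosome 1 had the largest gain of all, with 0.954 in seed, against 0.398 in silique. The chloroplast tRNA site, in the TΨC arm sequence common to tRNAs, had 0.976 in seed, against 0.536 in silique.

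The 6 sites passed in both with the largest negative difference are shown for contrast, and 2 of the 6 lie in the 18S rRNA gene AT3G41768 on chromosome 3.
AT3G41768 (chr3:14199300-14199320, plus strand): ccctgccctTTGtacacaccg
AT3G41768 (chr3:14198787-14198807, plus strand): ggggggagtATGgtcgcaagg
AT4G38780 (chr4:18101852-18101872, minus strand): tttgacgtcATAtaagctgac
AT3G07700 (chr3:2460509-2460529, minus strand): tgcggctccTTAtgcgcaggt
no annotated gene (chr5:21990602-21990622, plus strand): ttgaacaggATCtgttctata
rbcL (Pt:55327-55347, plus strand): gtatttgggTTCaaagccctg

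The rRNA sites had fractions of 0.318 and 0.632 in seed, against 0.641 and 0.901 in silique, and each window occurs in 2 places of the assembly. AT4G38780, annotated as a splicing factor-like protein, had 0.608 in seed, against 0.893 in silique. AT3G07700, a protein kinase family gene, had 0.432 in seed, against 0.632 in silique, and *rbcL*, for the large subunit of Rubisco in the chloroplast genome, had 0.773 in seed, against 0.943 in silique. The unannotated site on chromosome 5 had 0.571 in seed, against 0.755 in silique, with 7 copies of its window. The sites with the highest fractions in both tissues were between 0.971 and 1.00 in seed and between 0.971 and 1.00 in silique. Of these, 3 lie in tRNAs and 1 in AT3G06365, annotated as an uncharacterized RNA. It lies at chr3:14202454, on the strand of AT3G41768 and downstream of its sites shown above. Whether it is itself part of an rRNA was not tested.

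Of the 376 sites passed in both, 22.3% were at least 0.1 higher in seed and 4.26% lower, shares to set beside the counts below. By class of RNA, the sites in protein-coding genes made up 265 of the 376. Their median fraction was 0.202 in seed, against 0.164 in silique. The median of their differences was 0.022, with 44 at least 0.1 higher in seed and 8 at least 0.1 lower. The 39 tRNA sites had medians of 0.90 in seed, against 0.87 in silique, and a median difference of 0.044, with 12 higher and 3 lower. For the 18 sites in snRNAs, which form the spliceosome, the medians were 0.639 in seed, against 0.632 in silique. Site by site, their median difference was 0.056, with 14 of the 18 above 0, 6 higher by the rule of size and none lower. The 11 snoRNA sites had medians of 0.704 in seed, against 0.511 in silique, and a median difference of 0.105, with 7 higher and none lower. The 11 mitochondrial sites had medians of 0.949 in seed, against 0.772 in silique, and a median difference of 0.162, with 6 higher and none lower. The 8 sites in genes annotated as rRNA had a negative median difference (-0.049), with none higher and 3 lower. The 7 sites in genes annotated as ncRNA or as miscellaneous RNA, AT3G06365 among them, had one of -0.0026, with 1 higher and none lower. The classes follow the annotation, so an rRNA under another label is not counted as rRNA. The RNA was selected for poly(A) tails, so that tRNA, snRNA, snoRNA and rRNA sites come from what passed that selection. Within protein-coding genes, 234 sites lay in coding sequence (median difference 0.019), 26 in the 3′ untranslated region (0.023), 4 in the 5′ untranslated region and 1 in an intron.

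Motifs differed in the size of the lean. The 80 sites with Ψ between U and C (UΨC) had medians of 0.735 in seed, against 0.573 in silique, a median difference of 0.064, with 30 at least 0.1 higher in seed and 5 at least 0.1 lower. The 84 UΨG sites had a median difference of 0.036, with 20 higher and 1 lower, and the 34 GΨG sites one of 0.026, with 5 higher and none lower. The 76 CΨC sites had medians of 0.207 in seed, against 0.197 in silique, and a median difference of 0.00068, with 6 higher and 3 lower. The median fraction in silique differed between these motifs as well. The motifs were not split by class of RNA, so that motif and class cannot be told apart here.

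**Figure D4:**
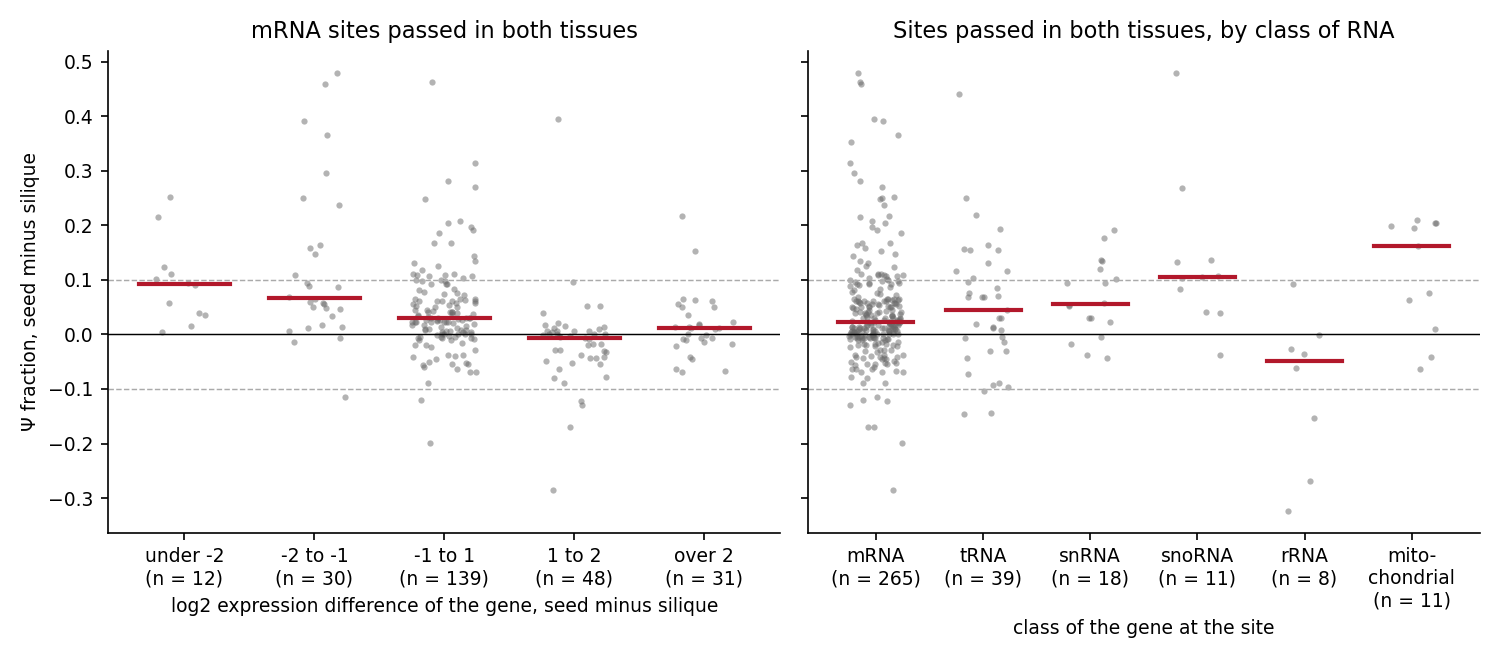
Difference in Ψ fraction, seed minus silique, at sites passed in both tissues, left by the log2 expression difference of the gene for mRNA sites and right by class of RNA. Each point is 1 site, the red bar is the median and the dashed lines mark 0.1 and -0.1. The median is 0.093 for genes under -2 and -0.0061 for genes between 1 and 2.

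The relation between the difference in fraction and that in expression depended on which sites were taken. Among the mRNA sites passed in both, the median difference in fraction was 0.093 at the 12 sites in genes with a log2 expression difference under -2, 0.067 at the 30 sites between -2 and -1, 0.029 at the 139 sites between -1 and 1, -0.0061 at the 48 sites between 1 and 2, and 0.011 at the 31 sites above 2. Across the 260 of these sites whose gene was tested, Spearman's rho was -0.446 and Pearson's r -0.336. The points share the libraries of the 2 tissues and, for some genes, the gene. At mRNA sites passed in neither tissue, the median difference was -0.032 at the 1816 sites under -2. It was 0 in each group between -2 and 2, and 0.0022 at the 113 sites above 2. Only the mean differences there rose from group to group. They were -0.039 under -2, -0.0028 at the 749 sites between -2 and -1, and 0.0041 at the 1729 sites between -1 and 1. Above that they were 0.020 at the 367 sites between 1 and 2, and 0.042 above 2. Of the sites under -2, 74.0% were at 0 in seed. Passing the filter bears on the fraction itself. The read depth behind a fraction is unknown and moves with expression, and its part in these relations was not tested.

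Sites that passed in 1 tissue only lay mostly in genes with the higher mRNA level in that tissue. Of the 1153 sites passed in seed only, 958 lay in protein-coding genes that were tested, and 67.4% of these were in genes higher in seed and 3.65% in genes lower in seed, beside 12.4% and 42.1% of all genes tested. Of 1106 such sites passed in silique only, 2.62% were in genes higher in seed and 72.6% in genes lower in seed. Of the sites passed in neither, 10.1% were in genes higher in seed and 53.7% in genes lower in seed. The direction of the fraction is set by this choice of sites and is no result in itself. The seed-only sites had medians of 0.174 in seed, against 0.063 in silique, with 504 of 1153 at least 0.1 higher in seed, so that 632 were within 0.1 and 17 were at least 0.1 lower. The silique-only sites had medians of 0.046 in seed, against 0.158 in silique, with 462 of 1176 at least 0.1 lower in seed. At silique-only sites in genes with an expression difference under -2, the median seed fraction was 0 over 635 sites, and what part low depth in seed has in this was not tested.

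The 4 sites passed in seed only with the largest difference had fractions of 0.989 to 1.00 in seed, against 0 in silique at each. They lie in a nuclear tRNA-Gly gene (AT2G47740), the tRNA-Cys gene AT2G07763, the 18S rRNA gene AT2G01010 and AT3G06365, annotated as an uncharacterized RNA. Their windows occur 2 to 5 times in the genome. The 4 passed in silique only lie in introns of *FER3*, for a ferritin, *BBC1*, for a ribosomal protein, *NDPK1*, for a nucleotide kinase, and AT1G18193, with fractions of 0 in seed at each, against 0.912 to 0.989 in silique.

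**Figure D5:**
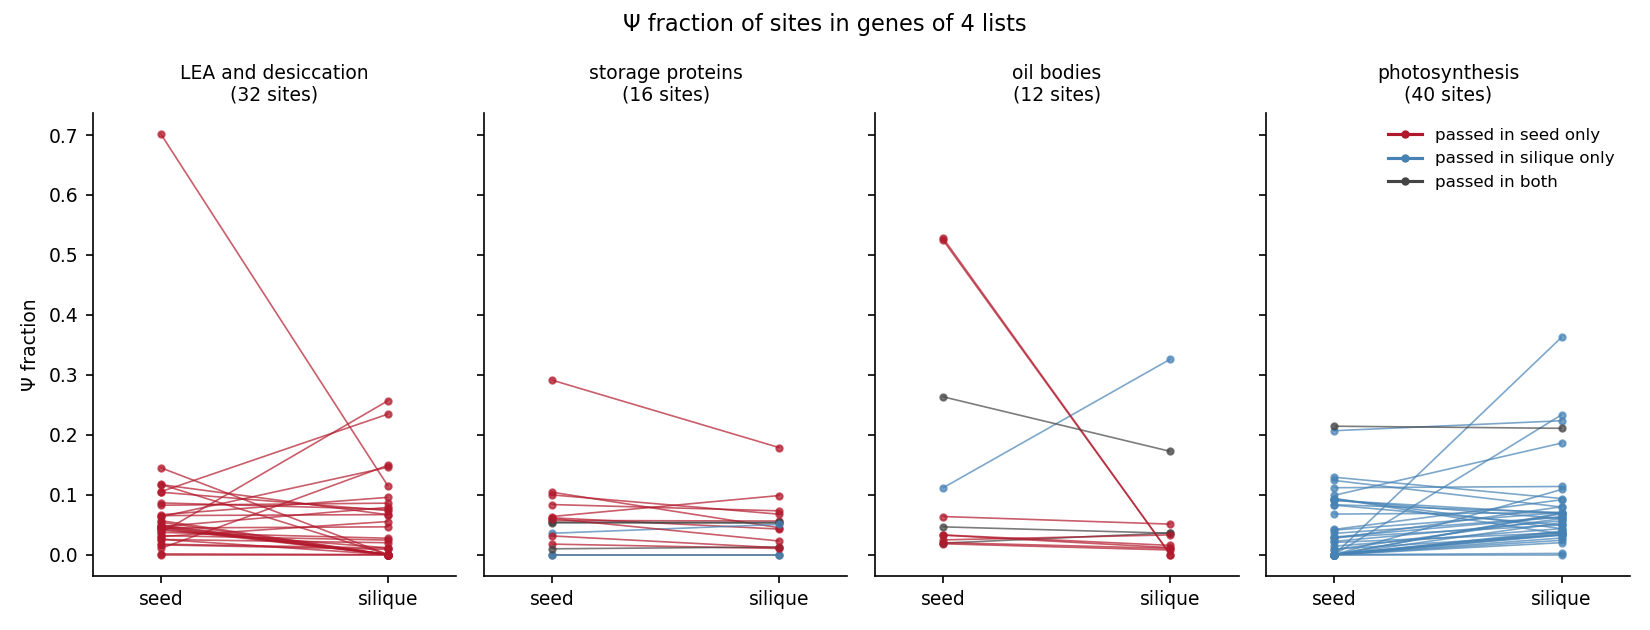
Ψ fraction of the passed sites in genes of 4 lists, with each site as a line joining its fraction in seed (left) and in silique (right), coloured by where it passed. All 32 LEA and desiccation sites passed in seed only and 39 of 40 photosynthesis sites in silique only, with medians of 0.046 in seed and 0.022 in silique for the 32 sites, and 0.020 in seed and 0.060 in silique for the 39 sites.

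Among the mRNAs of seed maturation, many sites passed in seed only, at low fractions. The 19 LEA and desiccation genes held 32 such sites in 11 genes and none that passed in silique. Their median fraction was 0.046 in seed, against 0.022 in silique, and 12 were at 0 in silique. At least 0.1 in seed was reached by 6 of them and in silique by 5, so that few could differ by that much, and 3 were at least 0.1 higher in seed and 3 at least 0.1 lower. The site of *RAB28* stood apart with 0.702 in seed, against 0.114 in silique. In *RAB18*, 4 sites lie 21 nucleotides apart in a repeated stretch of the coding sequence, and they are shown with the *RAB28* site because all 4 hold Ψ between G and G.
RAB28 (chr1:753046-753066, plus strand): gagcggaacTTAgaagcagtt
RAB18 (chr5:26519006-26519026, minus strand): gagctacagGTGgccaaggat
RAB18 (chr5:26518985-26519005, minus strand): acggaacagGTGgccaagggt
RAB18 (chr5:26518964-26518984, minus strand): acggatcagGTGgccaagggt
RAB18 (chr5:26518943-26518963, minus strand): acggaaccgGTGgccaaggat

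From the first to the last of these, the *RAB18* sites had fractions of 0.0175, 0.0318, 0.0406 and 0.0444 in seed, against 0.0110, 0.0243, 0.0114 and 0.0464 in silique, where none passed and where the mRNA was at 103 and 168 TPM. The order along the transcript is 5′ to 3′, and sites in adjoining repeats of 1 mRNA are not independent of each other. *M10* had 0.117 in seed, against 0 in silique, at 1 site but 0.010 in seed, against 0.149 in silique, at another.

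Storage protein sites that passed in both tissues were nearly equal between them, at fractions too low to differ by 0.1. The 4 sites passed in both, in *CRU2*, *CRU3*, *SESA2* and *SESA3*, had fractions between 0 and 0.054 in seed, against 0 and 0.054 in silique. The *SESA2* and *SESA3* sites lie at matching places of these tandem 2S albumin genes, whose windows differ at 1 letter.
SESA2 (chr4:13609426-13609446, plus strand): actttcgccCTCtgcttcctc
SESA3 (chr4:13611866-13611886, plus strand): actctcgccCTCtgcttcctc

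The *SESA2* site had 0.0530 in seed, against 0.0528 in silique, and the *SESA3* site 0.0542 in seed, against 0.0537 in silique. A further 10 storage protein sites passed in seed only, and 9 of them had the higher fraction in seed, a direction that this choice favours. At least 0.1 higher was 1 site, in *CRD*, at 0.291 in seed, against 0.179 in silique. Most sites of oil body genes in coding sequence were low as well, with 2 exceptions. The *OLEO3* site, passed in both, had 0.263 in seed, against 0.172 in silique. The *ATS1* site, passed in silique only, had 0.112 in seed, against 0.326 in silique. The 2 intron sites, in *OLEO4* and *HSD1*, had 0.528 and 0.524 in seed, against 0 in silique at each. For oil mobilisation, a *PCK1* site had 0.912 in seed, against 0.694 in silique, in a window with 3 copies in the genome, and the *SDP1* site had 0.297 in seed, against 0.232 in silique.

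The kinase genes *SNRK2.2* and *SNRK2.3* each had a site that passed in seed only, in matching stretches of the coding sequence.
SNRK2.2 (chr3:18743804-18743824, minus strand): agatattggCTCtggtaattt
SNRK2.3 (chr5:26710774-26710794, plus strand): ggatattggTTCtggtaattt

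Their fractions were 0.179 in seed, against 0.058 in silique, for *SNRK2.2*, and 0.141 in seed, against 0 in silique, for *SNRK2.3*. The regulators *ABI3* (0.229 in seed, against 0 in silique) and *HSFA9* (0.085 in seed, against 0 in silique) each had a seed-only site. The *ABI5* site (0.079 in seed, against 0.237 in silique) and a *SOM* site (0.190 in seed, against 0.613 in silique) were lower in seed although they passed there. Another *SOM* site, also passed in seed only, went the other way, with 0.106 in seed, against 0 in silique. The *ABI5* and *SOM* mRNAs were under 10 TPM in silique.

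Photosynthesis genes held 39 sites that passed in silique only, in 22 genes, and 1 that passed in both. The median fraction of the 39 was 0.020 in seed, against 0.060 in silique, and 16 of them were at 0 in seed. Only 6 of the 39 reached 0.1 in silique, so that few could be lower by that much, and 3 were. These were in the intron of *RBCS1A* (0 in seed, against 0.363 in silique), in *PSAE1*, for a photosystem I subunit (0 in seed, against 0.233 in silique), and in *LHCB1.1* (0 in seed, against 0.109 in silique). The site that passed in both is in *PSBO1*, for a protein of the oxygen-evolving complex, with 0.214 in seed, against 0.211 in silique, while its mRNA was at 28.4 TPM in seed, against 1341 and 1295 TPM in silique. The oil synthesis gene *FAD2* was alike, with 0.479 in seed, against 0.490 in silique, at a site that passed in silique only.
PSBO1 (chr5:26568959-26568979, plus strand): tcttgccacCTCtgctctcgt
FAD2 (chr3:3861615-3861635, minus strand): aagaaagcaATCccgccgcat

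Both sites are shown because their fractions differed by less than 0.1 while their mRNA levels were lower in seed by -5.49 for *PSBO1* and -4.44 for *FAD2* on the log2 scale. In the other lists, sites were few. The 7 genes that the study named held 11 sites passed in seed only, 1 in both and 1 in silique only. The pseudouridine synthase gene AT1G34150 had a silique-only site with 0 in seed, against 0.485 in silique. *GAR1* had 3 sites, of which 1 passed in both (0.132 in seed, against 0.187 in silique), 1 in seed only (0.129 in seed, against 0.035 in silique) and 1 in silique only (0 in seed, against 0.198 in silique). The pollen gene *VGD1* had a seed-only site (0.190 in seed, against 0.055 in silique), and its mRNA was lower in seed, though not called with scaled columns (-0.72).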

How the data were processed

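BID-seq of poly(A)-selected RNA covered 9 tissues in 72 libraries, of which 14 were of seed or silique. TPM values were deposited by the authors per gene, with each column summing to 1000000, and the aligner, counter and annotation of this table are not given in the sources used here. The Ψ fraction of each site was made by the authors from gapped and ungapped reads summed over the libraries of a tissue and calibrated, on TAIR10, with a P value-based filter whose threshold is not given in the sources used here.

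Here, genes with at least 1 TPM in at least 1 column were fitted as log2(TPM + 1) with limma 3.58.1 in R 4.3.3 (lmFit, eBayes with trend, all 16 columns, two-sided contrast seed minus silique, Benjamini-Hochberg). Fold changes on this scale understate the change of low genes. A gene was called at an adjusted p under 0.05 and a difference of at least 1. The scaled alternative divided each column by a factor from the 13127 genes above 1 TPM in every column (0.713 for seed, 1.003 and 1.009 for silique). The depth in TPM steps was read from the 3000 lowest values of a column, 100% of which were whole multiples of 1 step within 0.1 step. Sites were placed in RefSeq TAIR10.1 with Python 3.11.15. The base triplet of each site matched it at all 8414 sites outside the mitochondrial genome, and the 98 mitochondrial sites were not placed in genes. Of the gene IDs, 99.1% matched RefSeq. The limma step was tested on simulated data.

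The named genes were the 10 highest and the 10 lowest, up to 4 called members of each list, the strongest member against its list, and the storage protein, RBCS, LHCB and fruit patterning genes. Other list members were named after their values were seen. The comparison and the 21 lists were chosen with earlier results of these data known. Alternatives covered the pseudocount, filters, scaling, samples in the fit, replicate block, trend and size rules. Same-numbered columns did not deviate together (21 pairs in 7 tissues, r between -0.067 and 0.087).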

Additional observations from a re-analysis of the deposited data

How the results depend on the processing

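The seed expression column is single, the stage of the siliques is not given in the sources used here, and the depth behind a Ψ fraction is unknown, which limits how firmly any difference can be read. The counts of 3229 genes higher and 10969 lower in seed were 1282 and 6855 at a difference of at least 2 on the log2 scale, 3530 and 12590 with a pseudocount of 0.1, and 3180 to 3243 and 11006 to 11021 without either silique replicate. With the replicate block they were 3220 and 10986. No shared deviation of same-numbered columns was seen, since none of 21 pairs had a correlation over 0.1. This cannot show whether samples of the same number were handled together. Seed and silique share only 1 number.

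With scaled columns, all genes moved by 0.27 and list medians by 0.48 at the median. Then 6 storage proteins were higher (2 as deposited), 0 H/ACA genes were lower (1 as deposited, *NHP2*) and 2 pseudouridine synthases were higher (1 as deposited). The median of the abscisic acid and gibberellin list was 0.47 in place of -0.03 and that of the pseudouridine synthases 0.28 in place of -0.18. The sign also turned with scaled columns for *SESA2* (0.35), *HSP18.2* (0.14), *CBF5* (0.46), *AHG3* (0.31), *PPME1* (0.10), AT1G34150 (0.34), AT3G06950 (0.22) and AT5G14460 (0.17), none of them called as deposited. It turned for *SESA2* with the replicate block (0.041), and without either silique replicate AT1G34150 ranged from -0.24 to 0.020 and *STS* from -0.0091 to 0.017. Of 257 genes, *OLEO1* and *OLEO2* were the only ones to lose the call without a silique replicate, and 16 moved by over 1.5 times, all of them larger without replicate 2 (*M10*, *ECP31*, *EM6*, *LEA18*, *LEA4-5*, AT2G42560, AT3G53040, *HSP17.4*, *HSP17.6A*, *HSFA9*, *MLP31*, AT1G08170, AT1G17010, AT3G22490, AT4G36600 and AT5G55135). With only the seed and silique columns, where the spread comes from silique alone, *CRA1*, *CRU2*, *CRU3* and *SESA3* were called too. The cause of the shifts between silique replicates was not tested.

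At sites passed in both tissues, the median difference of 0.028 was 0.044 with a fraction of at least 0.1 in both, and the mean was 0.048. The share higher in seed (22.3%) was 39.6% at a difference of at least 0.05, 8.78% at 0.2, 16.6% in protein-coding genes, 18.3% in genes with at least 10 TPM in both tissues and 27.2% with a fraction of at least 0.1, and the share lower (4.26%) was 11.4% at 0.05, 0.798% at 0.2 and 2.33% in genes with at least 10 TPM. Over all sites, the median of 0 was 0.020 where both fractions were above 0. The share higher (16.9%) was 25.4% at 0.05, 9.44% at 0.2, 21.7% above 0 in both, 14.8% in protein-coding genes and 14.9% in genes with at least 10 TPM, and the share lower (16.7%) was 28.7%, 7.19%, 5.62% and, in genes with at least 10 TPM, 9.02%.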
